A study of Mus musculus with 6 samples.

Results

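The genes of the epithelial-mesenchymal transition (EMT) described here are 6 transcription factors (*Snai1*, *Snai2*, *Twist1*, *Twist2*, *Zeb1* and *Zeb2*), the cadherins *Cdh1* and *Cdh2*, the filament gene *Vim* and the epithelial regulator *Grhl2*. They were taken by gene symbol from a table of 54532 genes, and all 10 were found. RNA had been sequenced from mouse T cells kept with ID8, an ovarian cancer line of the mouse, to ask how tumour cells exposed to cisplatin alter T cells. The cisplatin group held 3 libraries of T cells kept with ID8 cells pretreated with 40 µM cisplatin, and the control group held 3 libraries of T cells kept with ID8 cells given PBS. In both groups the T cells came from spleens of C57BL/6 mice of 6 to 8 weeks, were purified as pan T cells, grown with 10 ng/mL IL-2 and activated for 72 h with beads against CD3 and CD28. No genetic change was named for either group, the tumour cells of both were a single line, and neither the labels nor the methods give the number of mice or state that the libraries came from separate mice or cultures, so the p-values measure the spread between libraries, which may be technical.

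EMT is the programme by which epithelial cells loosen their junctions and take on a mesenchymal, motile form. SNAIL, TWIST and ZEB proteins repress E-cadherin and other epithelial genes, GRHL2 maintains those genes, and N-cadherin and vimentin are the usual mesenchymal readouts. In lymphocytes several of the same genes have other roles, since vimentin forms the filaments of resting and activated T cells, ZEB1 is needed for T-cell development and ZEB2 for effector CD8 T cells.

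The authors deposited FPKM, that is fragments normalised for gene length and a total per library, and reads on each gene were rebuilt from these values. The libraries held 30606569 to 32169496 reads on genes. The total used for FPKM was not this count. It was 1.030 to 1.049 times the count in the cisplatin libraries and 0.976 to 0.982 times in the control libraries. RNA of more than one cell type was present, and its amounts differed between the groups. The T-cell identity genes (22 genes) summed to 1914 to 2038 FPKM in the control libraries and 3060 to 3124 in the cisplatin libraries, 1.56-fold higher, and were all detected. The ID8 tumour markers (19 genes, keratins, mesothelin and others) summed to 1714 to 1795 FPKM in control and 250.5 to 258.7 in cisplatin, 6.95-fold lower. Fibroblast markers (4 genes) summed to 97.4 to 100.3 FPKM in control and 19.4 to 22.3 in cisplatin. Of these, *Pdgfra* and *Lum* were near 0 in every library, and the 2 others were lower in cisplatin by log2 fold changes of -2.37 and -2.21. Endothelial markers (4 genes) summed to 2.26 to 2.79 FPKM in control and 0.826 to 1.21 in cisplatin. Only 1 of the 4 passed the expression filter, with a log2 fold change of -1.81. B-cell markers (10 genes) summed to 1701 to 1789 FPKM in control and 3638 to 3711 in cisplatin, myeloid markers (12 genes) to 74.3 to 78.1 and 140.6 to 160.5, and NK-cell markers (4 genes) to 6.86 to 7.53 and 7.53 to 9.22. The B-cell sum was 2.11-fold higher in cisplatin, whereas the mean difference per B-cell gene was 0.48 on the log2 scale. No gene of these lists was at 0 in all libraries. In such bulk RNA, fewer cells of a type and less RNA per cell cannot be told apart, and the part of these marker levels in the results that follow was not tested.

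Of the 10 genes, 7 reached a mean of 0.5 FPKM over the 6 libraries and were tested with limma on log2(FPKM + 0.1), and each of the 7 had a mean above 0.5 FPKM in both groups. A gene was called when its Benjamini-Hochberg adjusted p-value over all tested genes was under 0.05 and its fold change at least 2. *Vim*, *Cdh1*, *Cdh2*, *Snai1* and *Snai2* were called lower in the cisplatin group and none was called higher, on the deposited scale (all 5 directions turned when libraries were centred on the ID8 tumour markers). Among all 15874 tested genes 12.8% were called lower and 4.11% higher. Without a fold minimum *Zeb2* was lower as well, which made 6 of 7, against 29.0% of all tested genes. The cisplatin libraries lay wholly below the control libraries for the same 6 genes, as they did for 32.3% of all tested genes. *Twist1*, *Twist2* and *Grhl2* were below the filter and were not tested.

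**Figure D1:**
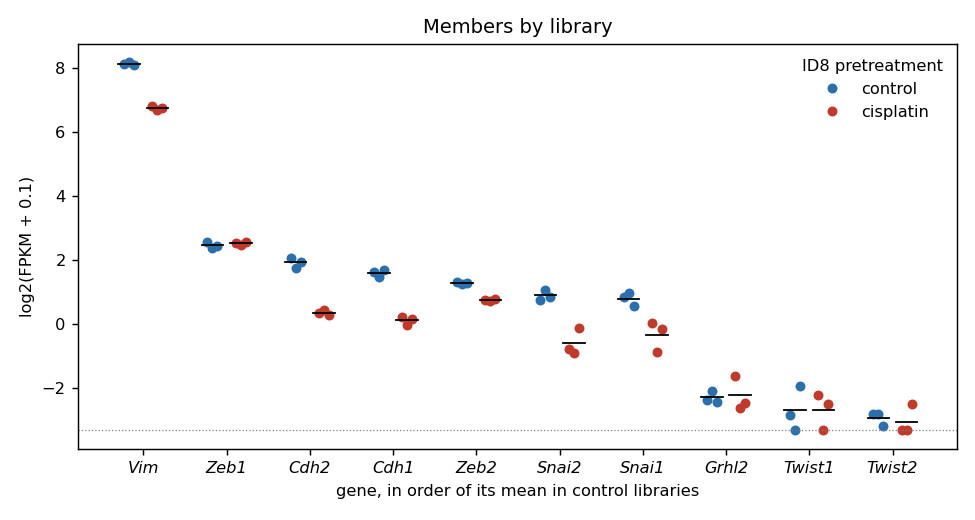
Level of each of the 10 genes in every library as log2(FPKM + 0.1), with blue points for control, red points for cisplatin and a bar at the mean of the 3 libraries. The dotted line marks 0 FPKM. The red points lie below the blue ones for *Vim*, *Cdh2*, *Cdh1*, *Zeb2*, *Snai2* and *Snai1*, and the colours overlap for *Zeb1*, *Grhl2*, *Twist1* and *Twist2*.

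*Snai1* (ENSMUSG00000042821, GRCm38 chr2:167538195-167542814, plus strand) encodes SNAIL, a zinc-finger repressor that binds E-box letters in the *Cdh1* promoter. *Snai1* measured 1.71, 1.87 and 1.37 FPKM in the control libraries and 0.934, 0.447 and 0.799 FPKM in the cisplatin libraries. The groups did not overlap, and the second cisplatin library was the lowest of the 6. The means were 1.65 ± 0.257 and 0.727 ± 0.252 FPKM (SD, n = 3 each), 2.27-fold lower with cisplatin, and the log2 fold change was -1.12 (SE 0.28, 95% interval -1.79 to -0.45, limma adjusted p = 0.013). These values rested on 68 to 91 reads per control library and 24 to 49 per cisplatin library. Without the second cisplatin library the log2 fold change was -0.85 (limma adjusted p = 0.017), short of the fold minimum.

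*Snai2* (ENSMUSG00000022676, chr16:14705852-14709385, plus strand) encodes SLUG, the related repressor. It measured 1.60, 1.997 and 1.71 FPKM in control and 0.489, 0.433 and 0.824 FPKM in cisplatin. Each control library was above each cisplatin library, and the third cisplatin library was the highest of its group. The mean fell from 1.77 ± 0.206 to 0.582 ± 0.212 FPKM (SD, n = 3 each), 3.04-fold, with a log2 fold change of -1.49 (SE 0.25, 95% interval -2.10 to -0.88, limma adjusted p = 0.0024). The reads behind it were 97 to 121 per control library and 29 to 54 per cisplatin library. Within each group the libraries of *Snai1* and *Snai2* overlapped, so neither SNAIL gene stood above the other.

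*Twist1* (ENSMUSG00000035799, chr12:33957671-33959829, plus strand) encodes a basic helix-loop-helix factor of mesoderm. It had 2, 0 and 8 reads in the control libraries and 6, 0 and 4 in the cisplatin libraries. The sums were 10 reads in each group (95% exact Poisson interval 4.80 to 18.4), and the ratio of cisplatin to control, relative to the reads of the libraries, was 0.981 (exact binomial interval 0.367 to 2.63). *Twist2* (ENSMUSG00000007805, chr1:91801461-91848028, plus strand), its close relative, had 4, 4 and 1 reads in control and 0, 0 and 8 in cisplatin. The sums were 9 reads (4.12 to 17.1) and 8 reads (3.45 to 15.8), with a ratio of 0.872 (0.293 to 2.55). At this depth a difference of either TWIST gene was not detectable, and these intervals cover counting error only.

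Of the ZEB genes, *Zeb2* was lower at the adjusted p and *Zeb1* did not pass it. *Zeb1* (ENSMUSG00000024238, chr18:5591860-5775467, plus strand), a zinc-finger and homeodomain repressor, measured 5.77, 5.10 and 5.36 FPKM in control and 5.69, 5.42 and 5.85 FPKM in cisplatin. The groups overlapped. The means were 5.41 ± 0.337 and 5.65 ± 0.214 FPKM (SD, n = 3 each), and the log2 fold change was 0.06 (SE 0.07, 95% interval -0.10 to 0.22, limma adjusted p = 0.46). The interval excludes a change of the size seen in the called genes on the deposited scale.

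*Zeb2* (ENSMUSG00000026872, chr2:44983632-45117395, minus strand), the paralogue of *Zeb1*, measured 2.38, 2.29 and 2.33 FPKM in control and 1.57, 1.56 and 1.64 FPKM in cisplatin. The libraries of each group lay close together and the groups did not overlap. The means were 2.33 ± 0.0428 and 1.59 ± 0.0427 FPKM (SD, n = 3 each). *Zeb2* was thus lower, with a log2 fold change of -0.53 (SE 0.09, 95% interval -0.75 to -0.30, limma adjusted p = 0.0030), but it missed the fold minimum of 2 and was not called.

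Within a library, the ratio of *Zeb1* to *Zeb2* FPKM was 2.43, 2.23 and 2.30 in control and 3.62, 3.48 and 3.57 in cisplatin. All cisplatin ratios lay above all control ratios. The means were 2.32 ± 0.102 and 3.56 ± 0.0715 (SD, n = 3 each), a difference of 0.59 on the log2 scale (two-sided exact permutation p = 0.1, the smallest that 3 against 3 libraries allow). This ratio does not depend on how the libraries were scaled.

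Upstream sequence was at hand for *Snai1*, *Twist1*, *Twist2*, *Vim* and *Zeb2*, with 8 start sites in all (RefSeq, GRCm38.p6). The 250 bases before each start site were searched on both strands for the letters CAGGTG, the E-box bound by SNAIL and ZEB proteins, for CATCTG, an E-box of TWIST, and for AACCGGTT, a motif of grainyhead factors. The *Snai1* window is shown because it was the only one of the 8 that held any of the 3, with the E-box match in capitals (read as CACCTG on this strand, at -126 from the start site). The farthest upstream of the 4 *Zeb2* windows is shown beside it as a factor window with no match.
Snai1, chr2:167537945-167538194, plus strand: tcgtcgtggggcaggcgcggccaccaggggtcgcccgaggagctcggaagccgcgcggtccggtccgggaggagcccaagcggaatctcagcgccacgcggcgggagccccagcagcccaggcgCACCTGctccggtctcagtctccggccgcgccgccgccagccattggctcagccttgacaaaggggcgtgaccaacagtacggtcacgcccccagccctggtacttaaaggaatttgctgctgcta
Zeb2, chr2:45117443-45117692, minus strand: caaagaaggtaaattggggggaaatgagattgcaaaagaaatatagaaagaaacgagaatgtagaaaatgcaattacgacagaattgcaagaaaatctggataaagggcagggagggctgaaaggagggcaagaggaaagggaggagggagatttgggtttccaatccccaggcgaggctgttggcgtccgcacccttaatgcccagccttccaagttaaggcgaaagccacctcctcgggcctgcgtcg
The *Snai1* window had 70.0% G and C and 27 CG pairs, and the *Zeb2* window 49.6% and 9. CAGGTG was found in 17.2% of the 32851 windows of all genes, CATCTG in 14.4% and AACCGGTT in 0.116%, so the match in *Snai1* is a description of its letters.

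*Cdh1* (ENSMUSG00000000303, chr8:106603351-106670246, plus strand) encodes E-cadherin, the adhesion molecule of epithelial junctions. It measured 3.02, 2.68 and 3.14 FPKM in control and 1.07, 0.884 and 1.01 FPKM in cisplatin. The groups did not overlap. The mean was 2.95 ± 0.242 FPKM in control and 0.990 ± 0.0969 FPKM in cisplatin (SD, n = 3 each), 2.98-fold lower, with a log2 fold change of -1.48 (SE 0.13, 95% interval -1.79 to -1.18, limma adjusted p = 8.8e-05). The control libraries together held 1223 reads of *Cdh1* and the cisplatin libraries 443.

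*Cdh2* (ENSMUSG00000024304, chr18:16588877-16809246, minus strand) encodes N-cadherin, the cadherin of neural and mesenchymal cells. It measured 4.14, 3.30 and 3.74 FPKM in control and 1.18, 1.25 and 1.11 FPKM in cisplatin, again without overlap. The mean was 3.73 ± 0.417 FPKM in control and 1.18 ± 0.0720 FPKM in cisplatin (SD, n = 3 each), 3.15-fold lower. The log2 fold change was -1.57 (SE 0.12, 95% interval -1.86 to -1.29, limma adjusted p = 4.5e-05), from 2726 and 934 reads.

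The usual EMT readout sets N-cadherin against E-cadherin, and here both fell on the deposited scale. The ratio of *Cdh2* to *Cdh1* FPKM was 1.37, 1.23 and 1.19 in the control libraries and 1.10, 1.42 and 1.10 in the cisplatin libraries. The cisplatin libraries held both the highest and the lowest ratio, so the groups overlapped. The means were 1.26 ± 0.0935 and 1.21 ± 0.184 (SD, n = 3 each), a difference of -0.09 on the log2 scale (two-sided exact permutation p = 0.6). With 3 libraries a group the test could not have passed 0.05 in any case.

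**Figure D2:**
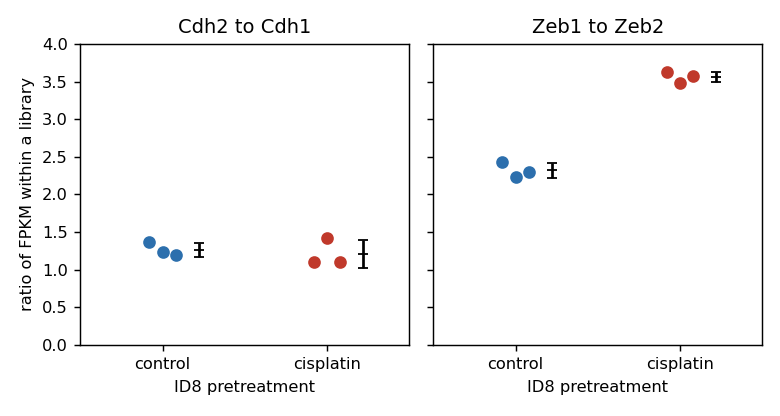
Ratio of the FPKM of *Cdh2* to *Cdh1* (left) and of *Zeb1* to *Zeb2* (right) within each library, with blue points for control, red points for cisplatin and bars for the mean and SD of 3 libraries. The cadherin ratios overlap between 1.10 and 1.42, and the ZEB ratios do not, at 2.23 to 2.43 in control and 3.48 to 3.62 in cisplatin.

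*Vim* (ENSMUSG00000026728, chr2:13573927-13582826, plus strand) encodes vimentin, the intermediate filament protein of mesenchymal cells and of leukocytes. It measured 278, 291 and 277 FPKM in control and 112, 104 and 107 FPKM in cisplatin. The replicates differed little and the groups were far apart. The mean fell from 282 ± 7.54 to 108 ± 3.96 FPKM (SD, n = 3 each), 2.61-fold, with a log2 fold change of -1.39 (SE 0.04, 95% interval -1.48 to -1.29, limma adjusted p = 4.8e-07). With 121309 reads in control and 50104 in cisplatin it was the best measured of the 10 genes, and it ranked 169 of all genes by mean FPKM.

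*Grhl2* (ENSMUSG00000022286, chr15:37233036-37363569, plus strand) encodes a grainyhead-like factor that keeps *Cdh1* active in epithelia and is opposed by ZEB1. It had 24, 35 and 23 reads in the control libraries and 63, 18 and 23 in the cisplatin libraries. The first cisplatin library held most of its group's reads, and the other two lay at or below the lowest control library. The sums were 82 reads (exact Poisson interval 65.2 to 101.8) and 104 reads (85.0 to 126.01), and the ratio of cisplatin to control was 1.24 (exact binomial interval 0.923 to 1.68), for counting error only. No difference was detectable at this depth.

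**Figure D3:**
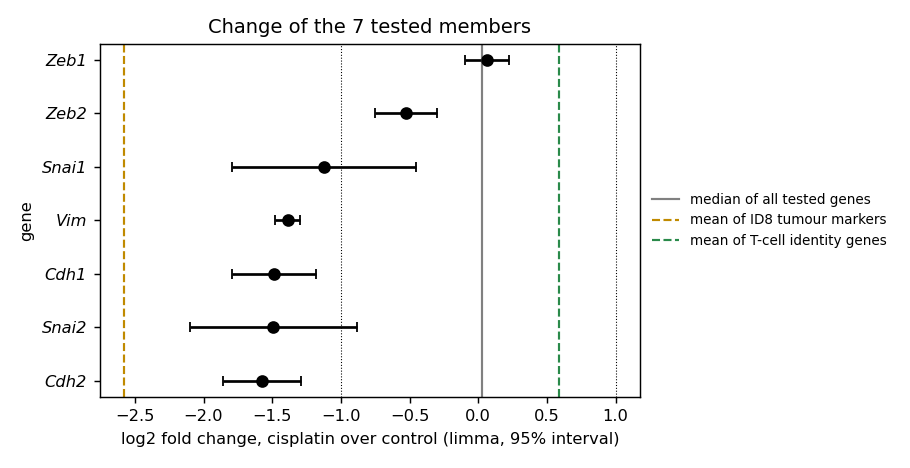
Log2 fold change of the 7 tested genes, cisplatin over control, with 95% intervals from limma on log2(FPKM + 0.1). Dotted lines mark the fold minimum, the grey line the median of all tested genes (0.03), and the dashed lines the mean of the ID8 tumour markers (-2.58) and of the T-cell identity genes (0.59). On this deposited scale the genes called lower lie between these dashed lines, at -1.12 to -1.57, and *Zeb1* lies at 0.06.

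The order of the levels changed with the groups. FPKM divides reads by the deposited length of each gene, so an order between genes depends on those lengths. *Zeb2* was given 19942 bases and *Cdh1* 4574, and in control they averaged 1406 and 408 reads. In control the order was *Vim*, *Zeb1*, *Cdh2*, *Cdh1*, *Zeb2*, then *Snai2* and *Snai1*, which overlapped, and last *Grhl2*, *Twist1* and *Twist2*, of which each overlapped the next. In cisplatin *Vim* and *Zeb1* again led, *Zeb2* lay above both cadherins, and *Cdh1*, *Snai1* and *Snai2* formed a run in which each overlapped the next. By FPKM, *Zeb2* thus stood below *Cdh1* in every control library and above it in every cisplatin library.

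Several of the genes share their span with other annotated genes, and strand-specific counting is not given in the sources used here. For *Zeb2*, the antisense gene *Zeb2os* held 30 reads in cisplatin and 24 in control, and *Mir5129*, *Gm27761*, *Gm27404* and *Gm27645* held none. For *Zeb1*, *Gm10125* on the other strand held 149 and 29 reads, *Gm16147* 16 and 10, and the miRNA gene *Gm22709* 0 and 2. For *Twist2*, *Gm29100* held 2 and 1 reads and *Gm29101* none, for *Grhl2*, *Gm16137* held 2 and 10 and *Gm16136* and *Gm16138* none, and *Gm15485* in *Cdh2* held none. *Snai1*, *Snai2*, *Twist1*, *Cdh1* and *Vim* overlapped no other gene of the table.

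The directions depended on the genes used to scale the libraries. When each library was centred on its T-cell identity genes, the log2 fold changes of the 7 tested genes ran from -2.16 (*Cdh2*) to -0.53 (*Zeb1*), with *Vim* at -1.98, *Cdh1* at -2.07, *Snai2* at -2.08, *Snai1* at -1.71 and *Zeb2* at -1.12. When it was centred on the ID8 tumour markers, all 7 were higher in cisplatin, from 1.004 (*Cdh2*) to 2.64 (*Zeb1*), with *Vim* at 1.19 and *Cdh1* and *Snai2* at 1.09. The groups overlapped for none of the 7 under either centring, but overlap was not counted over all tested genes there. Of all 15874 tested genes, 14307 were called higher under the ID8 centring and 3828 lower under the T-cell centring. The median of all tested genes was 0.03 on the deposited scale, -0.56 and 2.61 under these centrings and 0.16 under quantile normalisation, and it was 0.11 when libraries were scaled by their rebuilt reads. Relative to the median of all tested genes, a position that neither centring moves, *Vim* stood at -1.41, *Cdh1* at -1.51, *Cdh2* at -1.60, *Snai1* at -1.15, *Snai2* at -1.52, *Zeb2* at -0.56 and *Zeb1* at 0.04 on the log2 scale. On the deposited scale the 17 tested ID8 tumour markers were all called lower, at -4.20 to -1.15, a range that also holds *Vim*, *Cdh1*, *Cdh2* and *Snai2*, and all 22 T-cell identity genes were higher at the adjusted p with 0 called.

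**Figure D4:**
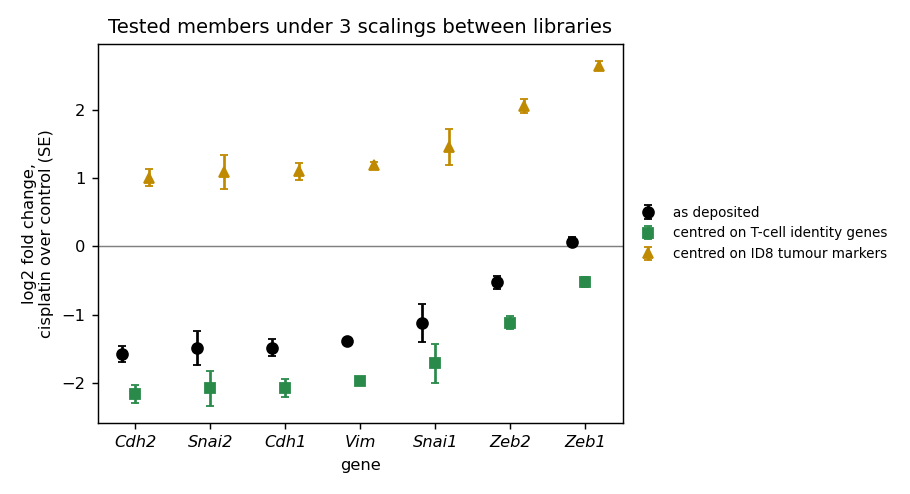
Log2 fold change of the 7 tested genes with its SE under 3 scalings of the libraries: as deposited (black), centred on the T-cell identity genes (green) and centred on the ID8 tumour markers (gold). The signs of the deposited scale hold for *Cdh2*, *Snai2*, *Cdh1*, *Vim*, *Snai1* and *Zeb2* in green and turn in gold, where the values run from 1.004 to 2.64, and *Zeb1* turns to -0.53 in green.

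The other genes of the pathway were taken from 9 lists of 119 genes, of which 66 were tested. Of these, 24 were called lower and 1 higher, with a median log2 fold change of -0.20 beside 0.03 for all tested genes. Among all tested genes 12.8% were called lower and 4.11% higher. Of the 24 called lower, 7 had a cisplatin mean below 0.5 FPKM and passed the filter through the control libraries, so that these had to differ to be tested. All directions and calls of the lists are on the deposited scale. Centring on the ID8 tumour markers, whose mean was -2.58, moves every gene up by the same amount. A direction can turn there, while the distance between genes stays.

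The genes of proteins that SNAIL, ZEB and TWIST work with had a median log2 fold change of 0.10. Of 17 tested partners and corepressors, 6 were higher and 2 lower at the adjusted p without a fold minimum (27.5% and 29.0% of all tested genes), and *Ctbp2*, a corepressor of the ZEB proteins, was the only one called, at -1.61 (2.57 to 0.778 FPKM, limma adjusted p = 1.2e-04). *Hdac1*, the histone deacetylase of these complexes, was higher by 0.25 on the log2 scale, and *Kdm1a*, a demethylase recruited by SNAIL, was lower by a log2 fold change of -0.24. Of 9 genes that modify or degrade SNAIL none was called. Without a fold minimum 4 were lower and 1 higher at the adjusted p (29.0% and 27.5% of all tested genes). Among the 4 was *Btrc*, the ubiquitin ligase subunit that marks SNAIL for destruction, at -0.73 (limma adjusted p = 0.0013).

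Other EMT transcription factors were mostly too low to test, with 5 of 11 passing the filter. *Foxq1* and *Sox9*, factors of epithelial progenitors and of EMT, were called lower at -2.53 and -2.20, beside 12.8% of all tested genes. *Foxq1* averaged 0.317 FPKM in cisplatin, passed the filter through the control libraries and so had to differ to be tested. *Runx2*, the bone factor, was lower at -0.90 without passing the fold minimum. *Snai3*, the third SNAIL family gene, lay the other way from *Snai1* and *Snai2* on the deposited scale. It measured 3.58, 4.34 and 3.40 FPKM in control and 6.91, 5.89 and 6.20 FPKM in cisplatin. The groups did not overlap, and *Snai3* was higher with a log2 fold change of 0.74 (SE 0.11, limma adjusted p = 0.0013), under the fold minimum.

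On the epithelial side, the 4 regulators that could be tested of 11 were all called lower, beside 12.8% of all tested genes. They were *Elf3* (-3.43), *Klf4* (-2.43), *Esrp2* (-2.35) and *Klf5* (-1.68), 3 transcription factors of epithelia and an epithelial splicing factor. *Elf3*, *Esrp2* and *Klf5* had cisplatin means below 0.5 FPKM and passed the filter through the control libraries. These 3 thus had to be lower in cisplatin to be tested, and only *Klf4* did not. *Klf4* was the best expressed of them, at 54.5 ± 1.44 FPKM in control and 10.1 ± 0.252 FPKM in cisplatin (SD, n = 3 each). Of the 5 tested epithelial effectors of 10, 0 were called and 2 were higher at the adjusted p, beside 27.5% of all tested genes. The 2 were the protease gene *St14* (0.60) and its inhibitor gene *Spint2* (0.24). *Epcam*, an epithelial adhesion molecule, measured 1.48 ± 0.326 FPKM in control and 1.39 ± 0.280 FPKM in cisplatin (SD, n = 3 each), with a log2 fold change of -0.08 (SE 0.22, limma adjusted p = 0.78).

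Of the 7 tested mesenchymal effectors of 16, 5 were called lower, beside 12.8% of all tested genes. *Lox*, the collagen cross-linking enzyme, fell by 5.02 on the log2 scale, *Ncam1*, a neural adhesion molecule, by 3.31, *Fn1*, fibronectin, by 2.53 and *Itga5*, a fibronectin receptor chain, by 1.25. *Ncam1* averaged 0.368 FPKM in cisplatin, passed the filter through the control libraries and so had to differ to be tested. *Col1a1*, a collagen chain, was lower at -0.72 (limma adjusted p = 0.0089) without passing the fold minimum, and *S100a4*, a calcium-binding protein, stood at 0.20 (limma adjusted p = 0.63).

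The junction genes that hold cadherins at the membrane were lower on the deposited scale, as *Cdh1* and *Cdh2* were. All 9 tested catenin and adherens junction genes of 11 were lower at the adjusted p, and 7 were called, with a median of -1.81. Of all tested genes 29.0% were lower at the adjusted p and 12.8% were called lower. *Nectin2*, a junction receptor, stood at -2.67, *Vcl*, the actin linker vinculin, at -2.30, *Jup*, plakoglobin, at -2.27, *Ctnnd1*, p120 catenin, at -2.25 and *Ctnna1*, alpha catenin, at -1.49. *Ctnnb1*, beta catenin, which also serves WNT signalling, was lower by less, with 83.6 ± 1.83 FPKM in control and 61.0 ± 1.44 FPKM in cisplatin (SD, n = 3 each) and a log2 fold change of -0.45 (limma adjusted p = 3.2e-05).

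Among the other cadherins, 4 of 20 could be tested, with 2 called lower and 1 higher (12.8% and 4.11% of all tested genes). *Cdh22* and *Cdh3*, P-cadherin, were called lower at -3.16 and -1.76. *Cdh22* averaged below 0.5 FPKM in cisplatin and so had to differ to be tested. *Cdh24* was the only gene of the 9 lists called higher. It measured 2.40, 1.73 and 1.90 FPKM in control and 4.38, 4.51 and 3.97 FPKM in cisplatin, without overlap, with a log2 fold change of 1.07 (SE 0.13, limma adjusted p = 5.3e-04).

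Of the intermediate filament genes beside *Vim*, keratins left out, 6 of 13 were tested. Of these 3 were called lower, beside 12.8% of all tested genes. *Lmna*, lamin A, fell from 25.9 ± 1.67 to 7.80 ± 0.497 FPKM (SD, n = 3 each, log2 fold change -1.72), and *Nes*, nestin, and *Sync*, syncoilin, stood at -1.61 and -1.03, all 3 called lower. *Sync* averaged 0.361 FPKM in cisplatin and so had to differ to be tested. The B-type lamin *Lmnb1* was higher, at 18.9 ± 0.265 FPKM in control and 33.3 ± 0.807 FPKM in cisplatin (SD, n = 3 each), with a log2 fold change of 0.82 (limma adjusted p = 2.6e-06), under the fold minimum. On the deposited scale *Vim* and *Lmna* were thus lower while *Lmnb1* was higher in the same libraries.

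**Figure D5:**
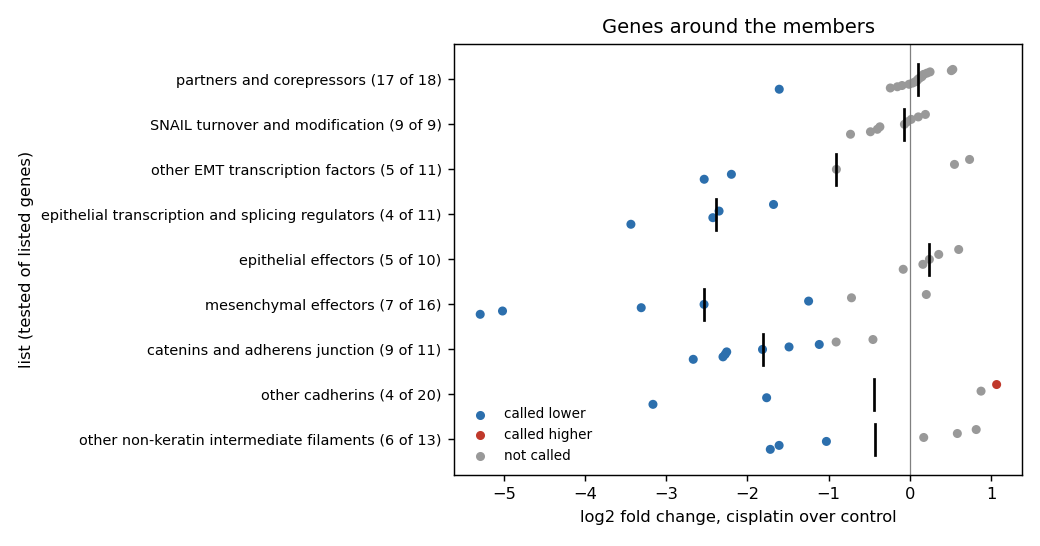
Log2 fold change, cisplatin over control, of each tested gene of 9 pathway lists, with blue points for genes called lower, red for called higher, grey for not called, a black bar at the median of the list, and the number tested of those listed in brackets. Points of the partners and of the genes that modify SNAIL lie between -0.73 (*Btrc*) and 0.53 (*Tcf3*), except *Ctbp2* at -1.61. Of the 7 points of the mesenchymal effectors, 5 are blue.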

How the data were processed

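RNA was sequenced from 3 cisplatin and 3 control libraries, grouped by the sample labels. The authors deposited FPKM and a gene length for each gene, from polyA RNA. The submitters' processing notes name fastp, HISAT2 2.0.5, featureCounts 1.5.0-p3 and mm10, whereas the methods name LifeScope for alignment, and strand settings are not given in the sources used here. Coordinates equalled GENCODE M21 (GRCm38) for 53499 of 54409 genes and for all 10 genes described.

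Whole reads were rebuilt from FPKM times gene length (100% of values within 0.1 of a whole read), which gave 30606569 to 32169496 reads on genes. Replicates were compared by chi-square of these reads (5.11 to 5.99 per degree of freedom), and none were identical. The fit was lmFit and eBayes with a variance trend, in limma 3.58.1 under R 4.3.3, on log2(FPKM + 0.1). It took the 15874 genes whose mean reached 0.5 FPKM, of 33456 with any read, with Benjamini-Hochberg adjustment. Fold changes are on the log2(FPKM + 0.1) scale, which understates those of low genes, and a fold given without log2 is a ratio of mean FPKM. On simulated data for this comparison, 194 of 200 changed genes were called among 15883, with 6 unchanged genes. The changed genes were drawn from those above a minimum of reads, and all genes had the same dispersion. Their changes were larger than those measured for *Snai1* and *Zeb2*, and no difference in marker levels was simulated. The recovery therefore does not carry over to such genes. Exact tests used scipy 1.17.1.

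The genes described and the lists were chosen with earlier results of these data known. All 10 genes are named, with the genes that overlap them, in each pathway list up to 4 called genes of the largest change whose higher group averaged 1 FPKM or more, any other list gene (1 gene is counted in its list but not reported here by name), and for each called gene its 3 nearest genes. All 204 listed symbols were found, 2 of them by an older symbol. The alternatives were other pseudocounts, filters and scalings, TPM, no variance trend, limma's treat, voom on the rebuilt reads, a replicate block and leaving out each library, and scaling by the rebuilt reads was added after the data were seen.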

Additional observations from a re-analysis of the deposited data

How the results depend on the processing

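Over 20 alternatives, the count of EMT genes called lower (5) was 4 to 6 except with a pseudocount of 1, where it was 2 (*Vim* and *Cdh2*), with a minimum mean of 5 FPKM, where it was 1 (*Vim*, since only *Vim* and *Zeb1* were then tested), and with centring on the ID8 tumour markers, where it was 0. In that centring 7 were called higher, against 0 in every other setting. Of all 15874 tested genes, 14307 were called higher in that centring too. Centred on the T-cell identity genes, 3828 of all tested genes were called lower, against 2034 in the main fit. The count differing at the adjusted p without a fold minimum (6) was 1 with the minimum of 5 FPKM and 4 to 7 otherwise. Leaving out a library gave 4 to 5 called lower and 0 called higher.

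Directions turned under 2 settings. Centred on the ID8 tumour markers, the log2 fold changes were 1.19 for *Vim*, 1.004 for *Cdh2*, 1.09 for *Cdh1*, 2.05 for *Zeb2*, 1.46 for *Snai1*, 1.09 for *Snai2* and 2.64 for *Zeb1*, whose sign was kept. Centred on the T-cell identity genes, *Zeb1* was at -0.53 (limma adjusted p = 6.4e-04) and *Zeb2* at -1.12, past the fold minimum. Both follow from the shift each centring makes. The *Zeb1* test was also past the adjusted p under quantile normalisation (0.24, adjusted p = 0.018) and voom (0.15, adjusted p = 0.042). With a pseudocount of 1, *Cdh1* (-0.99), *Snai1* (-0.62) and *Snai2* (-0.81) fell short of the fold minimum, which a larger pseudocount does to low genes by construction. *Snai1* lost its call also under quantile normalisation (-0.94), under limma's treat (adjusted p = 0.24) and without the second cisplatin library (-0.85). Over its alternatives its adjusted p ran from 0.0011 to 0.24. The log2 difference of the ratio ran from -0.20 to -0.03 for *Cdh2* to *Cdh1* and from 0.56 to 0.62 for *Zeb1* to *Zeb2* when a library was left out.

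Over all genes, 2687 were called (75.7% of them lower). The count was 1762 with a pseudocount of 1, 1145 with the minimum of 5 FPKM and 14389 (0.570% lower) centred on the ID8 tumour markers. The share lower was 96.5% under T-cell centring and 64.6% under quantile normalisation.

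Libraries with the same number did not deviate together over all tested genes (correlations 0.0229, -0.0630 and -0.0207). Neither labels nor methods say whether the number pairs libraries, and with 3 libraries a group these correlations cannot decide it. With the replicate block, 5 genes were called lower, 0 higher and 6 differed at the adjusted p, and the differences of the ratios stayed at -0.09 and 0.59 (exact paired permutation p = 0.75 and 0.25, the latter the smallest that 3 pairs allow). Few reads limit *Snai1*, *Snai2*, *Grhl2*, *Twist1* and *Twist2*, and the design of 3 libraries a group limits the ratios.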

Other observations

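For each of the 5 called genes, the 3 genes most like it were sought among 12056 tested protein-coding genes, as the Euclidean distance over the 6 libraries of log2(FPKM + 0.1) centred on each gene. The distances describe likeness in the same libraries that gave the calls, and no test was made. *Vim* had the closest neighbours, *Nod1* (distance 0.0657), a sensor of bacterial wall fragments, *Anxa5* (0.0780), a phospholipid-binding protein, and *Ano6* (0.0989), a membrane scramblase. *Nod1* averaged 38.5 FPKM in control and 14.8 in cisplatin, and *Anxa5* 178 and 69.8. *Cdh1* lay nearest to *Ppfibp2* (0.148), *Slc25a13* (0.151) and *Tspan17* (0.162), and *Cdh2* nearest to *Kifap3* (0.159), *Phka2* (0.162) and *Enpp1* (0.167). *Snai2* lay nearest to *Spire2* (0.221), *Tst* (0.322) and *Mdfi* (0.346), and *Snai1* nearest to *Wnk4* (0.285), *Dnajc25* (0.386) and *Zfp974* (0.388). The SNAIL genes, with the fewest reads of the 5, had the farthest neighbours. Neither cadherin was among the nearest genes of the other.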
